A study of Mus musculus with 2 samples.

Results

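Mouse genes that carry a Zfp symbol (Zfp and 2 or 3 digits) were described in nucleoplasmic RNA of macrophages. They were selected by symbol, by having at least 1 transcript annotated as protein_coding, and by an expected count of 100 or more in both libraries. Zfp36, an mRNA decay factor with another kind of finger, was left out. Of 368 genes with such a symbol, 359 had a protein_coding transcript and 194 passed the count minimum (called members below). They were set beside the 8364 protein-coding genes that passed the same minimum, which include them. Because the counts chose the members, their levels are given as a description with no test.

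The series holds 1 group of 2 libraries, biological replicates 1 and 2. Macrophages grown from C57BL/6J bone marrow were first exposed to Lipid A at 100 ng/ml for 12 h. Lipid A is the part of bacterial lipopolysaccharide that Toll-like receptor 4 detects. A washout of 12 h followed, and Lipid A was then added again at 100 ng/ml for 30 min. Nucleoplasmic RNA was isolated and ribosomal RNA was depleted before sequencing. Both libraries carry the same donor identifier and separate biosample identifiers, sex and age were not collected, and the starting RNA was 1 µg for replicate 1 and 500 ng for replicate 2. No untreated or singly treated cells belong to the group, so nothing below says what Lipid A did, and the spread between the libraries may be technical in part.

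Most Zfp symbols name proteins with C2H2 zinc fingers, short loops in which a pair of cysteines and a pair of histidines hold a zinc ion, and arrays of such fingers read DNA sequence. The largest mouse family joins the array to a KRAB domain, whose A box binds the corepressor Trim28 (KAP1). Trim28 brings in the histone methyltransferase Setdb1, HP1 proteins and a deacetylase complex, and many KRAB proteins silence endogenous retroviruses in this way. The genes arose by repeated local duplication and lie in clusters of close copies. Other Zfp symbols belong to transcription factors, RNA-binding proteins and ubiquitin ligases with no KRAB domain.

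The symbols cover more than KRAB genes. The coding sequences of protein_coding transcripts were searched for a KRAB A box motif. It was found in 88 of the 194 members (45.4%), against 121 of the 8364 protein-coding genes (1.45%). The motif was a leucine or methionine, then tyrosine, any pair of residues, valine, methionine, any residue and glutamate. At least 1 C2H2 finger was found in 191 members (98.5%), against 413 of the 8364 genes (4.94%). The finger pattern was cysteine, 2 to 4 residues, cysteine, 12 residues, histidine, 3 to 5 residues, histidine. Members are therefore called Zfp genes here, and split into 88 with the KRAB motif and 106 without. A missing motif says only that these letters are not there: Zfp445, Zfp263 and Zfp369 are known as KRAB genes and have no match.

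The coding bases around the motif show how alike some members are. Each KRAB window has 72 bases of coding sequence in 1 exon on mm10 (GENCODE M21), 5′ to 3′ on the gene's strand, with the 8 motif codons in capitals. The first set shows 4 members from chromosome 4, of which Zfp993 and Zfp991 are among the 8 members with the highest level. Zfp992 and Zfp984 were added after their values were seen.
Zfp993: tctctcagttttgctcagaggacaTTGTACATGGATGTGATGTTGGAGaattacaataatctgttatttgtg
Zfp991: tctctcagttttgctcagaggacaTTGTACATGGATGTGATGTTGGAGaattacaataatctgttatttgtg
Zfp992: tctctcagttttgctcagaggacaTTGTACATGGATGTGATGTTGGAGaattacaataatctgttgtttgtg
Zfp984: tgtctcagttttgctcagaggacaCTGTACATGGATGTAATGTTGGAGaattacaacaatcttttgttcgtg
The windows are at chr4:146655854-146655925 (+ strand, Zfp993), chr4:147176801-147176872 (+ strand, Zfp991), chr4:146464458-146464529 (+ strand, Zfp992) and chr4:147757703-147757774 (- strand, Zfp984). Zfp991 had 0 base differences from Zfp993, Zfp992 had 1 and Zfp984 had 7.

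A second set shows members from chromosome 2, where 5 members (Zfp966, Zfp968, Zfp970, Zfp971 and Zfp973) had 1 identical window. Zfp971 and Zfp973 are shown because they are among the 4 members with the lowest ratio of replicate 1 to replicate 2.
Zfp971: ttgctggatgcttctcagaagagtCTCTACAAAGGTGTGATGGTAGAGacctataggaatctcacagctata
Zfp973: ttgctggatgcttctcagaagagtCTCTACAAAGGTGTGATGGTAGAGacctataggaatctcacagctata
Their windows are at chr2:178031309-178031380 and chr2:176678590-176678661, both on the + strand, and differ from that of Zfp993 at 30 of the 72 bases. Across the 88 motif members there were 80 distinct windows, and 13 members shared a window with another member.

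A further set shows members whose targets are known in the mouse. Zfp809 binds the primer binding site of murine leukaemia virus, Zfp568 represses a placental Igf2 transcript and Zfp932 represses endogenous retroviruses.
Zfp809: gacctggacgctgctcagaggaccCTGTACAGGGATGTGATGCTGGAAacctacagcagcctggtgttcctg
Zfp568: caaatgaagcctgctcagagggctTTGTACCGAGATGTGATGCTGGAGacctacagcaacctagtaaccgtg
Zfp932: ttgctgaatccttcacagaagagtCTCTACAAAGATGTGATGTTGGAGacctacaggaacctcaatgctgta
These lie at chr9:22235074-22235145, chr7:29997804-29997875 and chr5:110006998-110007069, all on the + strand. They differ from the Zfp993 window at 24, 25 and 27 bases, in the order shown. The 3 proteins have separate targets. Their capitals all match the motif because the windows were chosen by it.

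For the members without the motif, a finger is shown of each of the KRAB genes the search missed that lead the set by level, with the codons of the zinc-binding cysteines and histidines in capitals.
Zfp263: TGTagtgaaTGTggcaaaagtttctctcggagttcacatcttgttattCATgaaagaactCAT
Zfp445: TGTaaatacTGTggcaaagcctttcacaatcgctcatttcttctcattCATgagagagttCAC
They lie at chr16:3749380-3749442 (+ strand) and chr9:122852655-122852717 (- strand). Both are coding sequence within 1 exon, 63 bases long.

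The libraries held 23846021 (replicate 1) and 20675305 (replicate 2) gene counts, of which members took 0.606% and 0.646%. Mitochondrial genes held 2.91% and 6.91% of the counts, so that replicate 1 carried the smaller share. Of the macrophage markers Lyz2, Csf1r, Adgre1, Cd68 and Itgam, 5 of 5 were past the minimum with a summed 1809 and 3154 TPM. Marker sums were 0 and 0 TPM for T and NK cells, 0.56 and 1.14 TPM for B cells, 1.26 and 2.39 TPM for neutrophils and 0.27 and 0.11 TPM for fibroblasts. The labelled cell type thus had its defining markers, and those of the other cell types were at or near 0. In bulk RNA, fewer cells of a type and less RNA per cell cannot be told apart.

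Past the same minimum, 54.0% of the 359 Zfp genes had counts, against 38.2% of 21901 protein-coding genes. Of the 185 Zfp genes with the KRAB motif 47.6% passed, and of the 174 without it 60.9% passed. Among the 165 Zfp genes below the minimum, 25 had 0 counts in both libraries, 93 had 10 or more in both and 12 reached 100 in only 1 library. The nearest members inside were Zfp995 with 104 and 160 counts, Zfp968 with 181 and 108, and Zfp976 with 110 and 131. Just outside lay Zfp442 with 95.7 and 97.6 counts, Zfp455 with 97 and 137, and Zfp526 with 106 and 99. Several well-studied factors of early development and other lineages were below the minimum. Zfp57, which keeps genomic imprints, had 0 and 1 counts, and the pluripotency marker Zfp42 (Rex1) and the adipocyte factor Zfp423 had 0 in both. A count of 0 allows up to 3 counts, which is 0.126 and 0.145 CPM (counts scaled to the library total).

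Zfp genes were low for genes with counts. TPM (a level per transcript length, scaled to a fixed total) had a median of 3.68 and 4.58 over members, against 7.96 and 9.59 over all protein-coding genes past the minimum. The medians averaged 4.13 ± 0.64 TPM for members and 8.77 ± 1.15 TPM for all (SD, n = 2 libraries). On the log2(TPM + 0.1) scale the difference of medians was -1.07. Only 43 members (22.2%) lay above the median of all genes by mean TPM, and 13 (6.70%) in its upper quartile. At 10 TPM or more in both libraries were 27 members (13.9%), against 3433 of all genes (41.0%). At 20 TPM or more in both were 8 members (4.12%), against 1767 (21.1%).

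**Figure D1:**
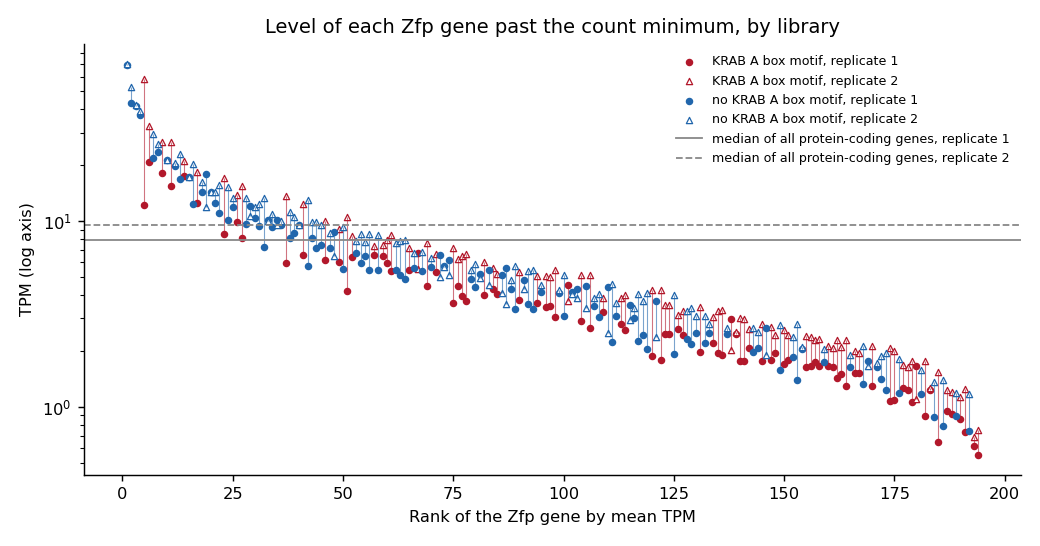
TPM on a log axis of each of the 194 Zfp genes, ranked by mean TPM, with filled circles for replicate 1 and open triangles for replicate 2. Red marks the 88 genes with the KRAB A box motif and blue the 106 without; grey lines give the medians of all protein-coding genes past the minimum (7.96 and 9.59 TPM). Few members lie above the lines, and 14 of the 20 lowest carry the motif.

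Genes with the KRAB motif were lower than the other Zfp genes in both libraries. Their median was 2.46 and 3.52 TPM, against 5.15 and 5.42 TPM for members without the motif. Averaged over the libraries these were 2.99 ± 0.75 and 5.29 ± 0.18 TPM (SD, n = 2 libraries). Above the median of all genes by mean TPM lay 11 of 88 motif members (12.5%), against 32 of 106 others (30.2%). Of the 20 highest members 6 carried the motif, and of the 20 lowest 14. The 88 motif members summed to 345 and 556 TPM and the 106 others to 817 and 945 TPM.

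In the alignment-based gene table Zfp263 had the highest level, 69.7 and 70.6 TPM from 8558 and 5749 counts. It encodes a SCAN and KRAB domain protein, and both libraries gave nearly the same TPM. The read-based table put it at 28.0 and 44.1 TPM, below Zfp991 with 34.5 and 54.1 TPM in both libraries, so its first place depended on the quantification. Zfp445, which maintains genomic imprints together with Zfp57, followed among KRAB genes with 41.8 and 42.4 TPM. Zfp57 itself, as given above, had 0 and 1 counts. Zfp369, related to a neurotrophin receptor interacting factor, had 11.1 and 15.7 TPM. Of the 9 genes listed as KRAB genes of known role, 6 passed the minimum (median 8.88 and 12.1 TPM). Beyond 2-fold between the libraries were 0 of these 6, against 1.94% of all genes, too small a background to set them apart.

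Zfp932, Zfp809 and Zfp568, shown above for their known targets, were lower than Zfp263, Zfp445 and Zfp369. Zfp932 had 6.61 and 7.37 TPM, and 48.2% of its 31-base words also occur in another gene. Zfp809 had 5.40 and 8.44 TPM from 257 and 320 counts. Zfp568 had 1.79 and 2.44 TPM. By TPM replicate 1 was the lower for all 3, as it was for 6322 of all 8364 genes (median log2 TPM ratio -0.28). Zfp30 had 4 and 1 counts and Zfp708 had 16 and 53 counts, so both fell below the minimum.

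By mean TPM, the leading 2 motif members, Zfp993 and Zfp991, are close copies on chromosome 4. Zfp993 had 12.3 and 58.2 TPM, a gap that far exceeds its gap in counts (360 and 670). Its assigned transcript length was 984 bases in replicate 1 and 632 bases in replicate 2. Zfp991 had 20.8 and 32.8 TPM, and Zfp992 15.5 and 26.6 TPM. Of their 31-base words, 91.9% (Zfp993), 88.0% (Zfp991) and 49.9% (Zfp992) also occur in transcripts of other genes, so the split of reads among these copies is uncertain. Other high motif members had few shared words. Zfp950 on chromosome 19, with 5.53% of its words shared, had 18.2 and 26.6 TPM, above Zfp992 in both libraries. Zfp655 on chromosome 5 had 17.5 and 21.2 TPM and 0% shared, and Zfp871 on chromosome 17 had 12.6 and 18.4 TPM and 0.632% shared. Zfp992, Zfp950 and Zfp655 were named after their values were seen.

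The other highest members lack the motif. Zfp207 (BuGZ), a spindle and kinetochore protein that binds Bub3, had 43.5 and 52.8 TPM. Zfp638, a nuclear RNA-associated protein whose human counterpart recruits the HUSH silencing complex to unintegrated retroviral DNA, had 37.5 and 39.4 TPM. Zfp62 had 21.9 and 29.6 TPM and Zfp800 had 23.6 and 26.0 TPM. Together the 8 highest members held 23.3% and 23.4% of the TPM of all members. At the low end, Zfp113 had 0.55 and 0.75 TPM, Zfp316 had 0.62 and 0.69, Zfp60 had 0.74 and 1.18, and Zfp976 had 0.73 and 1.25.

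Of the 25 listed Zfp genes of known role other than KRAB silencing, 21 passed the minimum, with a median of 7.30 and 9.91 TPM. The matrix and bone factor Zfp384 (Nmp4) had 21.4 and 21.4 TPM. Zfp106, an RNA-binding protein needed by motor neurons, had 17.0 and 23.0 TPM, and Zfp407 had 17.3 and 17.4 TPM. These stood above the median of all genes. Zfp91, a ubiquitin ligase of the non-canonical NF-kB kinase NIK, had 12.4 and 20.3 TPM, and the BTB protein Zfp131 14.3 and 14.4 TPM. Zfp318, which controls the choice between IgM and IgD transcripts in B cells, had 7.30 and 13.3 TPM. The remaining listed members ran between 1.40 and 10.9 TPM. Among them were Zfp143, a promoter factor of small nuclear RNA genes, with 3.03 and 3.41 TPM, the ribosome assembly factor Zfp622 with 7.44 and 9.54 TPM, and Zfp335, a factor of T cell maturation, with 6.16 and 5.13 TPM. Zfp687 (6.47 and 7.75 TPM) and Zfp592 (5.21 and 4.93 TPM) belong to 1 chromatin complex with Zfp532, which had 81 and 48 counts and was below the minimum.

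**Figure D2:**
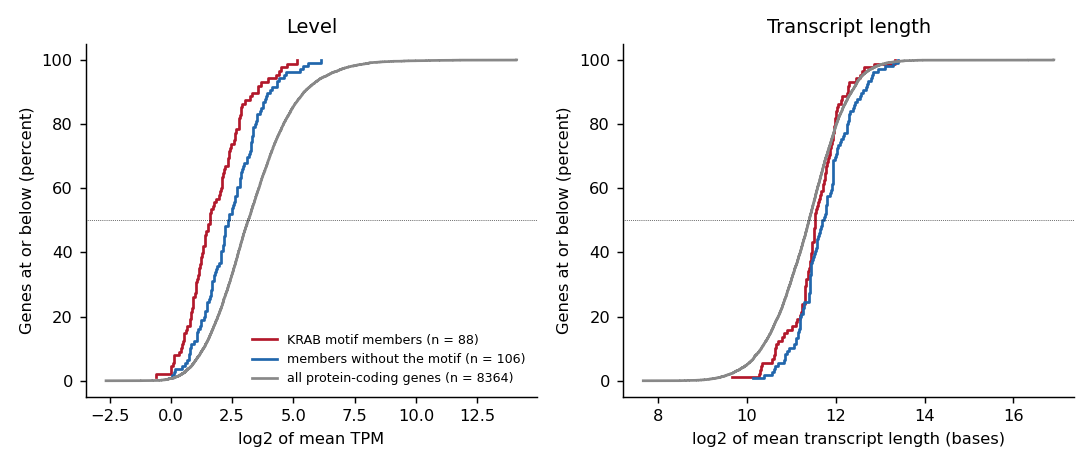
Cumulative share of genes by log2 mean TPM (left) and by log2 mean transcript length in bases (right), for the 88 members with the KRAB motif, the 106 without and all 8364 protein-coding genes past the minimum. Both member curves lie left of all genes for level and, over the lower 50%, mostly right of all genes for length.

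Members had longer transcripts than protein-coding genes at large. The length that the deposited tables give each gene, weighted by its transcripts, had a median of 3032 and 3294 bases over members, against 2668 and 2740 over all. Averaged over libraries this was 3163 ± 185 bases for members and 2704 ± 51 for all (SD, n = 2 libraries). Above the median length of all genes lay 136 members (70.1%). Motif members had 2928 and 2979 bases and the others 3322 and 3468 bases. The difference from all genes was larger than the spread between libraries in both sets. Zfp704 (10811 and 10729 bases), Zfp871 (10277 and 10429) and Zfp292 (9986 in both) were the longest, and Zfp993 (984 and 632), Zfp414 (1128 and 1112) and Zfp971 (1198 and 1293) the shortest. Since counts grow with length, a set of long genes passes a count minimum at a lower TPM. Without division by length, on TMM-scaled CPM, the difference of log2 medians was -0.87.

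Gene structure differed as well. The last coding exon held a median of 83.7% of the coding sequence in members, against 10.3% in all genes. It held over 50% in 144 members (74.2%) and in 12.1% of all genes. For motif members the median was 86.8% and 87 of 88 passed that mark, against 56.8% and 57 of 106 for the others. Members had a median of 4 coding exons and a gene span of 21280 bases, against 10 coding exons and 27150 bases for all. Their proteins had a median of 605 residues, against 498. In most members, that is, 1 large terminal exon carries most of the protein.

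Finger number varied widely among members. The median was 11 fingers, with 12 in motif members and 8 in the others, and 113 members had 10 or more. Zfp142 had 36, Zfp619 33 and Zfp236 30. No finger match was found in Zfp330, a cysteine-rich nucleolar protein, Zfp703, a transcriptional corepressor, or Zfp839. The array leaders were not highly expressed: Zfp142 had 4.10 and 4.24 TPM, Zfp619 2.09 and 2.62, and Zfp236 8.16 and 11.2.

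Most Zfp RNA was assigned to protein_coding transcripts. These took a median of 86.3% and 91.5% of a member's TPM, against 75.5% and 80.7% of all genes' TPM. For motif members the median was 99.3% and 100%, and for the others 80.0% and 83.3%. The means were closer, 79.5% and 81.0% in members against 72.1% and 74.7% in all genes. A protein_coding transcript led, by mean TPM, in 171 members (88.1%) and in 87.4% of all genes, so that the leading type hardly differed. Averaged over the libraries, the mean share was 80.3% ± 1.1 in members and 73.4% ± 1.9 in all genes (SD, n = 2 libraries).

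Retained_intron transcripts, in which the annotation keeps an intron, accounted for most of the difference. Their mean share was 12.6% and 10.9% in members, against 18.8% and 16.3% in all genes. It was 7.62% and 5.66% in motif members and 16.7% and 15.2% in the others. The median share was 0% in both libraries for members and 12.9% and 8.53% for all genes. Fewer members have such a transcript in the annotation at all, 91 of 194 (46.9%) against 65.6% of all genes, with 30 of 88 motif members (34.1%) and 61 of 106 others (57.5%). Shares of types follow what is annotated for each gene.

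**Figure D3:**
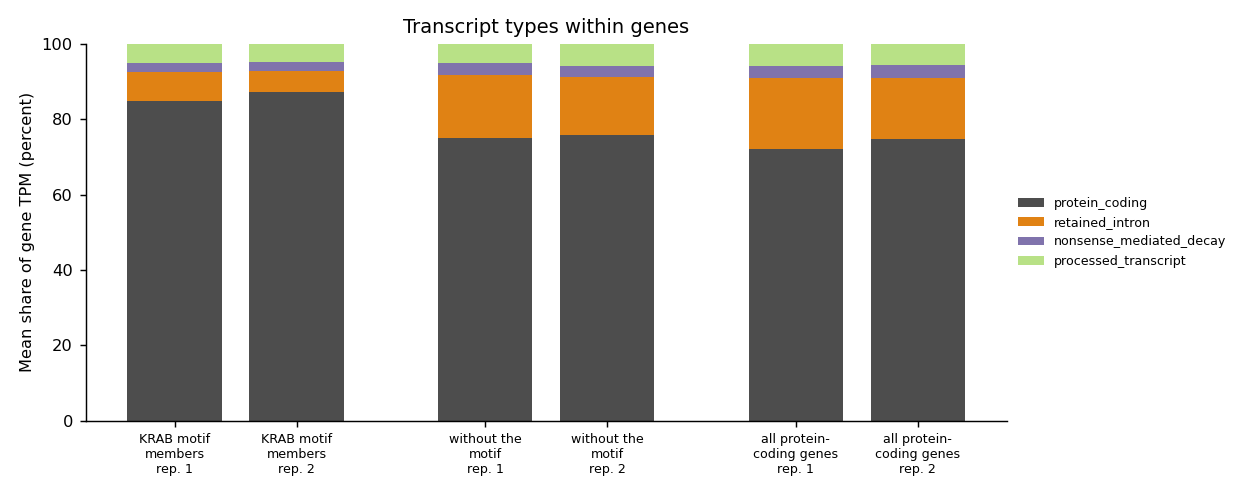
Mean share of gene TPM in percent by annotated transcript type, for members with the KRAB motif, members without it and all protein-coding genes past the minimum, each for replicate 1 and replicate 2. The retained_intron part is 7.62% and 5.66% in motif members and 18.8% and 16.3% in all genes.

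Some members went against the rest. Retained_intron transcripts held a mean of 88.8% of the TPM of Zfp945, 84.3% of Zfp326, 68.3% of Zfp653 and 62.0% of Zfp318. Zfp326 is a partner of RNA polymerase II in exon choice, known from human cells. In Zfp263, the highest member by alignment-based TPM, a retained_intron transcript led and the type held 42.7% and 38.3%. In all, 13 members were led by a retained_intron transcript, 5 by a nonsense_mediated_decay transcript and 5 by a processed_transcript. Nonsense_mediated_decay transcripts, which carry an early stop, held a mean of 2.90% and 2.85% in members, against 3.29% and 3.44% in all genes. They were largest in Zfp202 (69.6% of mean TPM), Zfp324 (64.7%), Zfp846 (46.5%) and Zfp207 (43.8%).

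The box itself was not always in the transcript that led. In the 88 motif members, protein_coding transcripts that encode the motif held a median of 87.6% and 95.6% of TPM. They held over 50% of mean TPM in 78 of the 88. The other 10 included Zfp945 with 11.2%, Zfp976 with 28.2%, Zfp655 with 33.9% and Zfp932 with 38.1%. In these genes most of the assigned RNA was of protein_coding transcripts without the box or of other types. Other types, among them nonsense_mediated_decay, were not searched for the box. Short transcripts that differ by an end exon are hard to tell apart from reads, so these shares are estimates.

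Between the libraries most Zfp genes differed by less than 2-fold. Counts were scaled by TMM factors, and ratios are log2, replicate 1 over replicate 2, so a negative value means lower in replicate 1. Beyond 2-fold higher in replicate 1 were 0 members, against 0.801% of all 8364 genes. Beyond 2-fold lower was 1 member, Zfp993, against 1.14% of all genes. With so small a background, members are not set apart by these counts. By the ratio of TPM, 8 members were beyond 2-fold lower in replicate 1, against 4.28% of all genes, and 0 members were beyond 2-fold higher, against 0.311% of all genes. The median absolute log2 ratio of scaled counts was 0.24 in members and 0.24 in all genes.

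The sign of the ratio was uneven within the family. In replicate 1, 78 of the 88 motif members (88.6%) were lower, against 53 of 106 members without the motif (50%) and 4524 of all 8364 genes (54.1%). Median log2 ratios were -0.34 in motif members, 0.00 in the others and -0.04 in all genes. With a stricter motif, which leaves 42 members with it and moves the rest into the other set, the medians were -0.30 and -0.14, so the difference fell by more than 1.5 times to -0.16, against -0.35. The exact 95% counting interval, which covers counting error only, lay below 0 in 53 motif members (60.2%) and above 0 in 5 (5.68%). In members without the motif it lay below 0 in 32 (30.2%) and above 0 in 26 (24.5%), near the shares of all genes, 35.8% below and 29.0% above. The genes are not replicates of a condition and only 1 library stands on each side, so the pattern describes this pair of libraries and has no test.

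**Figure D4:**
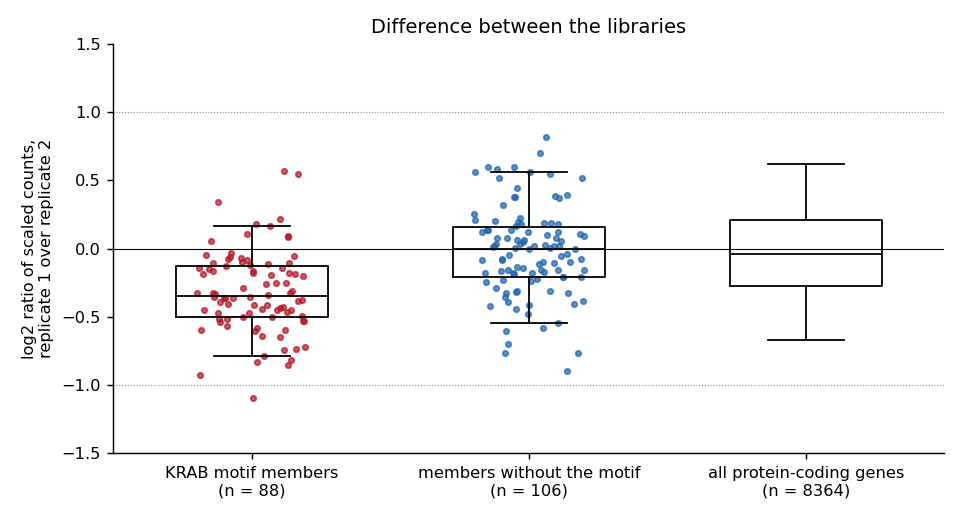
Log2 ratio of TMM-scaled counts, replicate 1 over replicate 2, for members with the KRAB motif, members without it and all protein-coding genes past the minimum. Points are genes, boxes show quartiles and median, whiskers the 5th and 95th percentiles, and dotted lines mark 2-fold; 78 of 88 motif members lie below 0.

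Several measures moved with this pattern. The median GC content of the longest protein_coding transcript was 40.3% in motif members, 48.8% in the others and 49.3% in all genes. After the median ratio of all genes of like GC was subtracted, 56 of 88 motif members were lower in replicate 1, with a median of -0.15, against 50 of 106 others with a median of 0.01. By read-based counts, 72 of 88 motif members were lower in replicate 1, with a median log2 ratio of -0.21, against 54 of 106 others (-0.01) and 4383 of all 8364 genes (-0.02). Another 30 genes past the minimum carried the motif and a finger under other symbols, and 28 of these were lower in replicate 1. Their median log2 ratio was -0.40 and their median GC content 39.5%. A median of 41.1% of their 31-base words also occur in other genes, against 5.96% in motif members. Over 50% were shared in 12 of the 30, against 11 of 88, so the split of reads among such copies is uncertain. The starting RNA and the mitochondrial share also differed between the libraries, as given above, and the part of each in the ratios was not tested. Ratios of TPM had a median of -0.40 over members and, as given above, -0.28 over all genes.

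The extreme ratios came from both sets. Lowest was Zfp993 at -1.09 (interval -1.28 to -0.91), followed by Zfp973 at -0.93, Zfp422 at -0.90 and Zfp971 at -0.85. Apart from Zfp422, these are the close copies whose windows are printed above. Highest were Zfp513 at 0.82 (0.68 to 0.96), Zfp219 at 0.70, Zfp598 at 0.60 and Zfp276 at 0.60. Zfp598 is a ubiquitin ligase that, in human cells, senses collided ribosomes. None of these 4 carries the motif.

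Summing close copies avoids the split of reads among the copies summed. Reads shared with copies outside a sum, such as genes under other symbols or below the minimum, can still be divided. The 4 printed copies on chromosome 4 had 5802 counts in replicate 1 and 7223 in replicate 2, a log2 ratio of -0.51 (-0.56 to -0.46). The 5 copies with 1 identical window on chromosome 2 had 1566 and 2163 counts, a log2 ratio of -0.66 (-0.76 to -0.57). Among those 5, Zfp968 alone was higher in replicate 1, at 0.54, and 97.3% of its 31-base words occur in another gene. Over 50% of the words were shared in 12 members (6.19%), of which 11 carry the motif, and in 3.36% of all genes. The median share was 3.42% in members, 5.96% in motif members and 1.88% in all genes.

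Members lay unevenly over the genome. Chromosome 7 held 41 of the 194 (21.1%) and chromosome 17 held 29 (14.9%), against 7.34% and 5.20% of all genes past the minimum. Chromosome 7 has 88 Zfp genes with a protein_coding transcript, so 47 of them were below the minimum. On chromosome 17, 29 of 41 passed, of which 23 carry the motif. On chromosome 4 only 8 of 30 passed, and on chromosome 10 it was 0 of 5.

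**Figure D5:**
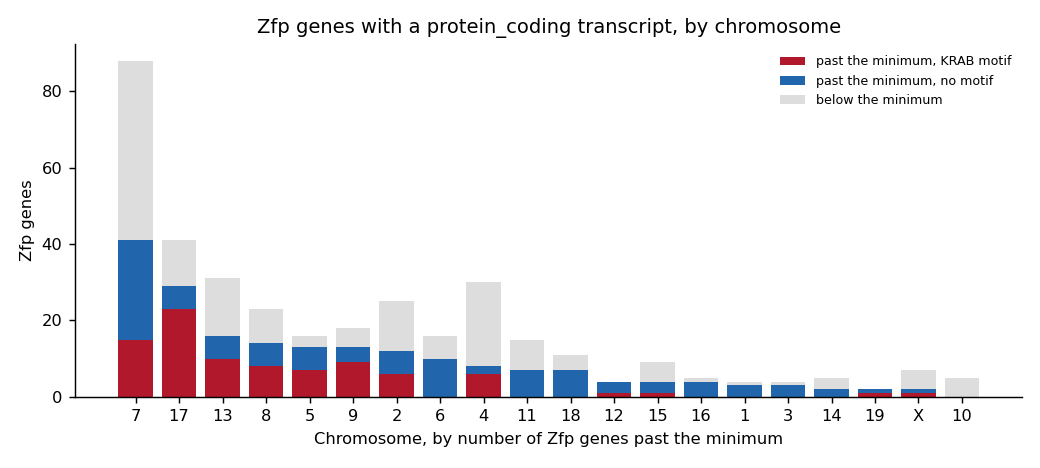
Number of Zfp genes with a protein_coding transcript on each chromosome, split into those past the count minimum with and without the KRAB motif and those below it. Chromosome 7 has 41 members of 88 genes and chromosome 17 has 29 of 41.

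Clusters were runs of 5 or more Zfp genes with gaps of at most 250000 bases. There were 17, with 149 genes, of which 81 were members. The clusters held 50 of the 88 motif members (56.8%) and 31 of the 106 others (29.2%). Members inside clusters had a median of 2.43 and 3.30 TPM, against 5.37 and 5.89 TPM outside. Genes under other symbols did not count towards a run, so outside does not mean single copies. It includes Zfp992, Zfp993 and the copies with an identical window (Zfp966, Zfp968, Zfp970, Zfp971 and Zfp973). The chromosome 17 cluster at chr17:21383748-22456689 had 18 genes, all with the motif, and 13 were members, with a median of 1.90 and 3.31 TPM. The chromosome 4 cluster at chr4:145510759-146198755 had 5 genes with the motif and 0 members. Clusters thus differed in how many of their genes had counts.

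Promoters of motif members held fewer CpG pairs. Windows of 300 bases around the start, from RefSeq (build GRCm38.p6), matched 164 members by symbol. The median was 10 CpG in 79 motif members, 20 in 85 others and 22 over all matched genes. GC content had a median of 53.0%, 60.7% and 61.3% in the same order. The motif searched was the pair CG, which reads the same on both strands. On both measures motif members were lower than the other Zfp genes, whose medians lay nearer those of all genes.

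The partners through which KRAB proteins act had higher medians than the Zfp genes. Of 28 listed genes of the KRAB corepressor complex 27 passed the minimum (median 13.2 and 14.7 TPM). Trim28 had 18.03 and 27.66 TPM, Setdb1 11.7 and 12.7 TPM, and the HP1 gene Cbx5 7.49 and 11.7 TPM. Morc3 had 80.3 and 72.2 TPM and Chd4 42.2 and 50.6 TPM. Only Atf7ip2, with 23 and 9 counts, was below the minimum. All 10 matched genes of the HUSH complex and heterochromatin passed (median 11.0 and 12.1 TPM). A separate list of 8 DNA methylation genes mixes Dnmt genes, Tet genes and Uhrf1, and 5 passed (median 30.9 and 30.3 TPM). That median is the level of Tet3. Dnmt3a had 54.1 and 44.4 TPM, Tet2 51.9 and 56.6, Dnmt1 10.4 and 11.6, and Uhrf1 1.26 and 1.64. In these 3 lists 0 genes past the minimum differed beyond 2-fold between the libraries, against 1.94% of all 8364 genes. With so small a background, the lists are not set apart by this count. Among 19 listed C2H2 genes outside the Zfp symbols 11 passed, with a median of 5.03 and 4.82 TPM. Ctcf had 10.5 and 13.1 TPM, Yy1 5.03 and 6.77 TPM and Zkscan3 15.8 and 17.4 TPM.

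Overlap with other genes limits some values, since no source used here states whether strand was used in counting. Of the members 53 (27.3%) share part of their span with another counted gene, on the same or the opposite strand, against 37.6% of all genes. Zfp445, Zfp638, Zfp991 and Zfp800, all named above for their level, are among them. Expected counts were whole numbers, within 0.005, in both libraries for 140 members (72.2%) and 72.1% of all genes. In the rest some reads had been divided among genes by the quantification.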

How the data were processed

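The members and gene lists were chosen with earlier results of these data known. Per the file headers, assembly mm10 and GENCODE M21 were used throughout. Aligner, quantifier and strand setting: not given in the sources used here. Deposited gene tables list an expected count per gene, estimated so that ambiguous reads are divided among genes, and the TPM and FPKM of the authors. Deposited transcript tables list TPM per transcript and the percent of gene TPM in it (IsoPct), which was recomputed here. Another deposited transcript table, called read-based, lists estimated counts and TPM. The posterior mean TPM deposited by the authors served as an alternative only.

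Expected counts were rounded, and edgeR 4.0.16 in R 4.3.3 gave TMM factors of 0.997067 and 1.00294. Gene counts summed to 33095133 and 33056084 in the read-based tables. Ratios used a prior count of 0.5 and exact Clopper-Pearson intervals at 95%. Those intervals cover counting error alone, because reads that carry no molecular identifier may be copies of 1 molecule. With 1 group there is no test and no p-value. Log2 TPM used a pseudocount of 0.1.

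Motifs were searched in translated GENCODE M21 coding sequences, not in the RefSeq proteins first planned. Any protein_coding transcript of a gene could match, and transcripts of other types were not searched. Shared words were 31-base words of a gene's transcripts that occur in another gene. RefSeq promoters were matched by symbol.

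Named members were the 8 highest and 4 lowest by mean TPM, the 4 largest ratios each way, the 3 longest and 3 shortest, the 4 highest retained_intron and nonsense_mediated_decay shares, the 3 with most and fewest fingers, the 3 nearest the minimum on each side, and listed genes of known role. Other members were named after their values were seen. The calculations were tested on simulated data. As alternatives, size factors of DESeq2 1.42.0, library size, TPM ratios, other units, pseudocounts, minimums and motifs, read-based values and single libraries were tried. Chosen after seeing the data were trends of GC, length and level, removal of genes with shared words, and the deposited IsoPct.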

Additional observations from a re-analysis of the deposited data

How the results depend on the processing

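Members stayed below all protein-coding genes in level under every alternative run for that difference, while the level itself moved. The median of members was 4.13 TPM, and 6.03 as FPKM, 15.9 as TMM-scaled CPM, 3.18 TPM in the read-based table, 3.32 and 5.84 TPM at minimums of 50 and 200, 1.63 TPM with no minimum and 3.34 TPM without overlapping genes. The log2 difference from all protein-coding genes, -1.07, was -0.93 with a pseudocount of 1, -0.87 on CPM, -1.004 in the read-based table, -1.12 and -0.94 at minimums of 50 and 200, -1.27 without overlapping genes and -1.12 without genes sharing over 50% of their words. Median length, 3163 bases, was 3997 for the longest protein_coding and 3732 for the leading transcript. The median protein_coding share, 88.9%, was 75.9% in the read-based table. No read-based share of all genes is given here, so the larger share of members is shown for alignment-based values only. As means over members the shares were 80.3% protein_coding, 11.7% retained_intron and 2.88% nonsense_mediated_decay. The stricter motif found 42 members, against 88. Members without it had a median of 4.60 TPM, those without the looser motif 5.49 TPM, and those without the main motif 5.29 TPM, or 4.28 TPM without overlapping genes. Members beyond 2-fold numbered 1, but 8 by TPM ratio (4.59% of all genes) and 0 in the read-based table (1.58% of all), after GC was removed (1.33% of all) and without genes sharing words. By TPM ratio the median log2 ratio was -0.40 over members and -0.26 over those without the motif. The stricter motif brought the difference between motif members and the others to -0.16, against -0.35. That difference was also -0.16 after GC was removed and -0.20 in the read-based table, and -0.33 with the looser motif. Each library alone gave medians of 3.68 to 4.58 TPM, differences of -1.09 to -1.05, lengths of 3032 to 3294 bases and protein_coding shares of 86.3% to 91.5%. For the results listed the cause was not tested. By scaled counts only Zfp993 was beyond 2-fold, and its ratio kept its sign under every alternative. That log2 ratio was -0.96 in the read-based table and -0.81 after GC was removed, both within 2-fold. No paired analysis was possible because there is 1 group. A ratio needs both libraries, so it could not be recomputed from 1. Depth limits the lowest members: at 100 counts the 95% interval is wide, and 3 counts equal 0.126 and 0.145 CPM.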
